A study of Mus musculus with 8 samples.

Results

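Chromatin accessibility of the cortex (CTX) was compared with that of the lateral ganglionic eminence (LGE) in 4 of the 8 samples of a single-nucleus ATAC-seq series of the wild-type (WT) mouse embryonic forebrain. The samples were taken by their region label alone, which gave 2 CTX and 2 LGE samples. CTX replicate 1 and both LGE samples were labelled E12.5 (embryonic day, E) and CTX replicate 2 was labelled E14.5, so that age and replicate cannot be told apart within the CTX pair. The labels name no transgene and no treatment, and the medial and caudal ganglionic eminences (MGE and CGE), which made up the other 4 samples, were not part of the comparison. A difference was counted only where both CTX samples lay on one side of both LGE samples.

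The cortex forms from the dorsal telencephalon (pallium), whose progenitors express Emx1, Emx2, Pax6 and the Dmrt factors and give rise to glutamatergic neurons through the proneural factor Neurog2. The LGE belongs to the ventral telencephalon (subpallium), where Gsx2 and the Dlx genes direct progenitors towards GABAergic neurons, mainly striatal projection neurons and interneurons of the olfactory bulb. In ATAC-seq the transposase Tn5 cuts DNA where chromatin is open, and the cut sites counted at promoters and at distal enhancers measure how accessible they are.

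These 6 sequences are printed because they carry the comparison: the promoter of the LGE marker Gsx2, and the central 300 bases of 5 distal regions that were among the most clearly separated between CTX and LGE. All are from GRCm38.p6 and are written on the + strand. The promoter, from RefSeq, lies at chr5:75075351-75075650 around the start site of its gene. The windows higher in CTX lie at chr11:114336292-114336591, between genes, with Sdk2 the closest at 268055 bp, and at chr16:7447837-7448136, between genes, 94004 bp from Rbfox1's start site. The windows lower in CTX lie at chr5:75083378-75083677, in an intergenic region downstream of Gsx2, at chr3:32067106-32067405, in an intron of Kcnmb2, and at chr17:47952073-47952372, in an intergenic region 26526 bp from the start site of Foxp4. Capitals mark every match, on either strand, to 7 short words known as core sites of neural factor families: CAGATG and CAGCTG (E-boxes of bHLH factors), TAATTA (homeodomain), TGACAG (MEIS and TGIF), ACAAAG (SOX), TTGGCA (NFI) and ATGCAAAT (the octamer of POU factors).
Gsx2 promoter: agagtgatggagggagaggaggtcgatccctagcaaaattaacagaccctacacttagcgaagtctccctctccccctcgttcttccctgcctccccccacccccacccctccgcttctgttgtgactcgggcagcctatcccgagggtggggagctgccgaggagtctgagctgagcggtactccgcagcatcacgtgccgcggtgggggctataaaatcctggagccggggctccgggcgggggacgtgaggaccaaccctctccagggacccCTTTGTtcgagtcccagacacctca
Sdk2 distal region, higher in CTX: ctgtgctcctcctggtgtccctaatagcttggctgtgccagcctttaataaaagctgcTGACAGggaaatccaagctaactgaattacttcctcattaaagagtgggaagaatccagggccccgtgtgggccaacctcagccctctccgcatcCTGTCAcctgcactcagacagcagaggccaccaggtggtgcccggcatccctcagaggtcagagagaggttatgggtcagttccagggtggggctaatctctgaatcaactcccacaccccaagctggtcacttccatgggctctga
Rbfox1 distal region, higher in CTX: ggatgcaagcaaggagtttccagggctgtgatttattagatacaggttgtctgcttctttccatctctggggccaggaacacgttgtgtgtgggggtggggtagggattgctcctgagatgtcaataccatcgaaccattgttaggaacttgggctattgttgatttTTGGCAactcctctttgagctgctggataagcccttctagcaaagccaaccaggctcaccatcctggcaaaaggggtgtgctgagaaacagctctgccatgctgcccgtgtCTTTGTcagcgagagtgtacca
Gsx2 distal region, lower in CTX: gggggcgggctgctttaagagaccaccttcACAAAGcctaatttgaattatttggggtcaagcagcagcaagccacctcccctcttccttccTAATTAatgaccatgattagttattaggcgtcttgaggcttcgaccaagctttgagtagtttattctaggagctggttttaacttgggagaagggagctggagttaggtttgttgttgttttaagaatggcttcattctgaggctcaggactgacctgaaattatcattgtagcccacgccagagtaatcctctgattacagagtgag
Kcnmb2 distal region, lower in CTX: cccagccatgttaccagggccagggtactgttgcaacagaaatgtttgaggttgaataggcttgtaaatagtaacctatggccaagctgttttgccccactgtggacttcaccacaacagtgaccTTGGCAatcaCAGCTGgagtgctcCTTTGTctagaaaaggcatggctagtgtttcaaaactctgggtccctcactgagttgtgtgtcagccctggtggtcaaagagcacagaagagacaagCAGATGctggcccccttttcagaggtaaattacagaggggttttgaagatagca
Foxp4 distal region, lower in CTX: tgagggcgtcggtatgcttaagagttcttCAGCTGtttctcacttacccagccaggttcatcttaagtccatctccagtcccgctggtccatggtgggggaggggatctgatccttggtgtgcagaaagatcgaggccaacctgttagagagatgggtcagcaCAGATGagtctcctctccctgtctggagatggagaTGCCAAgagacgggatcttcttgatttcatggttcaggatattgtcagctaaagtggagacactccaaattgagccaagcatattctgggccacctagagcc

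Between 4108 and 6577 nuclei and between 80488152 and 138873845 counts in peaks were deposited per sample. Peaks were called in each sample separately, and the CTX samples had more of them (181339 and 167718) than the LGE samples (103633 and 142292), covering 168 and 139 Mb against 87.2 and 118 Mb. Between 23 and 54 cell barcodes were shared by any pair of these libraries, at most 1.09% of the smaller one. Since counts were summed over nuclei, fewer nuclei of a type and less accessibility per nucleus cannot be told apart. The labels do not say whether the samples of a region came from separate embryos or litters, so p-values measure only the spread between these samples. Values are given as CPM, counts scaled to a common library size by edgeR's TMM method. In the gene sums a peak counted for every gene it overlapped.

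The CTX samples differed more from each other than the LGE samples did, and genes with known age dependence did not follow the age labels of the CTX pair. Lin28a, Lin28b, Hmga2 and Igf2bp1, which are known to decline as cortical progenitors age, were all lower in the sample labelled E12.5 than in the one labelled E14.5: Lin28a gene CPM was 4.16 against 46.3 and Lin28b gene CPM was 49.1 against 106. The log2 ratio of CTX replicate 1 to 2 was −3.48 for Lin28a and −1.1 for Lin28b, or −1.34 and −0.43 per kb of peak. Between LGE replicates 1 and 2, both labelled E12.5, it was −1.12 and 0.04 by CPM. Of 8 genes known to rise with age, among them Nfia, Nfib and Nfix, 7 were higher in the sample labelled E12.5. With counts taken per kb of peak, 3 of the 4 falling genes were still lower there, but only 3 of the 8 rising genes were higher. Among genes of postmitotic glutamatergic neurons, CTX replicate 1 had Neurod2 at 171 CPM and Neurod6 at 137 CPM, against 17.0 and 43.4 CPM in CTX replicate 2, and 9 of 11 genes of glutamatergic neurogenesis were higher per kb of peak in the sample labelled E12.5. Over all genes the median log2 ratio of the CTX samples was −0.00 by CPM and −0.09 per kb. This split into falling and rising genes was made after the values were seen. Whether the age labels of the CTX libraries were exchanged was not tested, and the comparison without CTX replicate 2 is matched in age only if these labels hold. Totals and list counts that rest on both CTX libraries are in most cases given also without each of them.

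Peaks of the 4 samples were merged into 249930 regions, of which 78296 (31.3%) held a peak of every sample. Another 21643 regions held peaks of both CTX samples and of no LGE sample, and 6522 held peaks of both LGE samples and of no CTX sample. Among 78291 regions tested, 19156 (24.5%) were higher and 18287 (23.4%) lower in both CTX samples by any margin. Between the closest samples of the groups, 5344 (6.83%) were at least 2-fold higher and 3157 (4.03%) at least 2-fold lower, so that 62.9% of the regions 2-fold apart were higher in CTX. These 8501 regions numbered 18740 without CTX replicate 1 and 21526 without CTX replicate 2. With counts taken per base of peak the share higher was 26.3%, and the median log2 fold of all regions moved to −0.188. The regions are therefore described below mainly through the 48575 of which the peaks of every sample covered at least 50%, here called jointly covered. Of these, 7121 (14.7%) were higher and 13659 (28.1%) lower in both CTX samples, and 593 (1.22%) were at least 2-fold higher and 1214 (2.5%) at least 2-fold lower in CTX, a share of 32.8% higher. With the samples scaled by these regions alone, 10016 (20.6%) were higher and 9801 (20.2%) lower by any margin, the median log2 fold moved from −0.08 to 0.03, and 45.3% of those 2-fold apart were higher. The excess of lower regions by any margin thus differed with the scaling. The second scaling centres the log2 folds of the counted regions near 0, so a near-equal split follows largely from it. It cannot show which scaling is right, and the shares of gene lists and of promoter and distal regions are given under both. Joint cover kept 593 of the 5344 regions at least 2-fold higher and 1214 of the 3157 at least 2-fold lower.

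With 2 samples a group and the wide CTX pair, edgeR's quasi-likelihood test called 0 of 78291 regions (0%) after Benjamini-Hochberg adjustment, while 12799 regions had an unadjusted p of 0.05 or less. The DESeq2 Wald test called 9204. The median absolute log2 ratio between samples of a pair was 0.427 for CTX and 0.205 for LGE over jointly covered regions. Without CTX replicate 1 edgeR called 16909 regions and without CTX replicate 2 it called 18784, in both cases with the lone CTX sample assumed to vary like the LGE pair. Of the jointly covered regions at least 2-fold from both LGE samples in CTX replicate 1, 593 of 2245 higher regions (26.4%) and 1214 of 3420 lower regions (35.5%) were so in CTX replicate 2 as well. Without CTX replicate 1 the jointly covered regions separated at least 2-fold numbered 5582, without CTX replicate 2 they numbered 5665 and without LGE replicate 1 they numbered 3036, against 1807 with all 4 samples.

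The markers of both tissues were separated in the direction of their labels. The region over the Emx1 start site (chr6:85185272-85195567), the gene of a homeodomain factor of cortical progenitors, held 106 and 129 CPM in CTX against 38.4 and 44.5 CPM in LGE. Both CTX samples lay above both LGE samples, with a log2 fold of 1.499 ± 0.17 (SE, n = 2 and 2) and an edgeR adjusted p of 0.151. Per base of peak this log2 fold was 0.79, with the groups still apart. The region over the Gsx2 start site (chr5:75069525-75080075) held 19.2 and 35.7 CPM in CTX against 102 and 133 CPM in LGE, a log2 fold of −2.10 ± 0.36 (edgeR adjusted p = 0.152). Gsx2 is the homeodomain factor that patterns LGE progenitors, and all 3 of its jointly covered regions were lower in both CTX samples. The intergenic region 5110 bp from its start site (chr5:75080712-75086343), whose centre is printed above, held 20.6 and 22.2 CPM in CTX against 71.2 and 82.8 CPM in LGE (log2 fold −1.85 ± 0.16, edgeR adjusted p = 0.151).

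**Figure D1:**
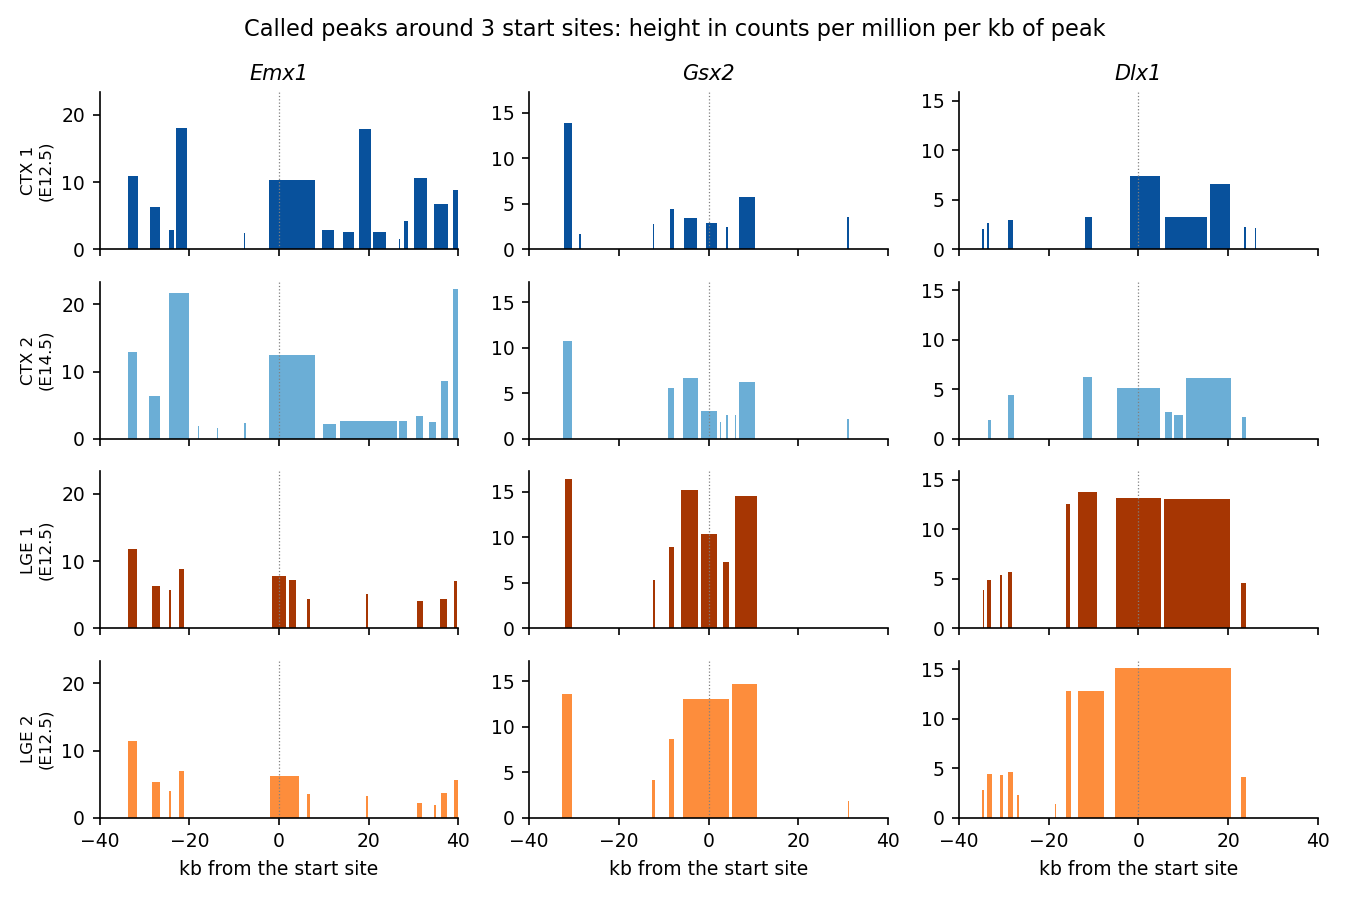
Peaks called in each sample within 40 kb of the start sites of Emx1, Gsx2 and Dlx1, with distance from the start site in kb on the x axis and CPM per kb of peak on the y axis; each bar is 1 peak, each row 1 sample, and the scale is shared within a gene. The peaks over the start sites of Gsx2 and Dlx1 are taller in both LGE samples than in either CTX sample, and that over the start site of Emx1 is taller in both CTX samples.

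The start-site regions of the subpallial homeobox genes Dlx1, Dlx2, Dlx5, Dlx6, Six3 and Vax1 were lower in both CTX samples. One region of 25818 bp spanned Dlx1 and Dlx2 (chr2:71522882-71548699), neighbouring homeodomain genes needed for GABAergic neurons, together with part of Metap1d, and it held 110 and 119 CPM in CTX against 325 and 390 CPM in LGE. This log2 fold of −1.64 ± 0.14 went with an edgeR adjusted p of 0.151. The region over Dlx5 and Dlx6 (chr6:6849631-6883065), the second pair of Dlx genes, held 111 and 144 CPM in CTX against 281 and 313 CPM in LGE (log2 fold −1.22). Six3, a homeobox gene of the ventral forebrain and of striatal neurons, had 36.5 and 60.4 CPM in CTX against 172 and 212 CPM in LGE over its start site. Vax1, a ventral homeobox gene, had 37.3 and 51.6 CPM against 122 and 178 CPM. In each of these 4 regions the highest CTX sample lay well below the lowest LGE sample.

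Of 73 jointly covered regions nearest to the 13 subpallial progenitor regulators, 56.2% were lower and 8.2% higher in both CTX samples, against 28.1% and 14.7% of all jointly covered regions. With the samples scaled by jointly covered regions alone these shares were 47.9% and 9.6%, against 20.2% and 20.6% of all. All 3 regions of Vax1 and all 3 of Sp9, a zinc-finger factor of LGE neurons, were lower. A region 22096 bp from the start site of Olig1, a bHLH factor gene of ventral progenitors, held 4.10 and 3.10 CPM in CTX against 27.8 and 37.0 CPM in LGE (log2 fold −3.17 ± 0.32). Of 32 regions nearest to GABAergic differentiation genes 59.4% were lower and 4 regions were higher, or 56.2% and 6 regions with that scaling. Gad2, which makes GABA from glutamate, had 30.2 and 34.4 CPM in CTX against 64.8 and 71.6 CPM in LGE over its start site. Slc32a1, the vesicular GABA transporter, had 33.4 and 20.2 CPM against 78.1 and 82.7 CPM there.

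**Figure D2:**
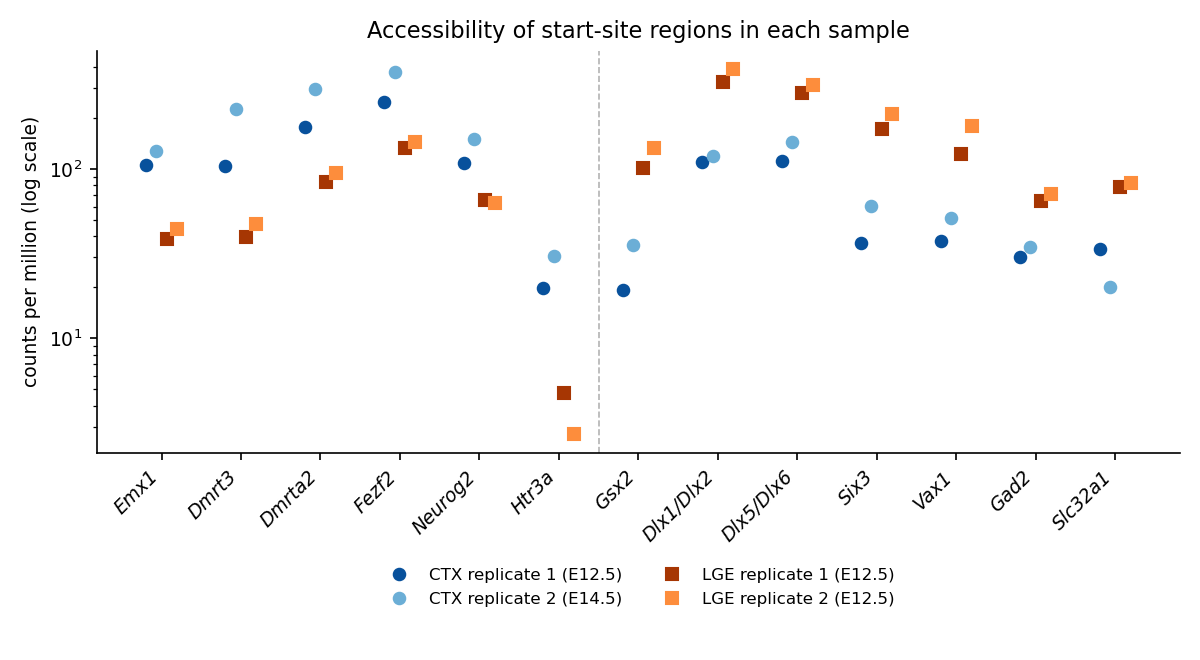
CPM on a log scale in the merged region over the start site of 13 list genes or gene pairs; circles are the 2 CTX samples, squares the 2 LGE samples, and the dashed line parts the 6 higher in CTX from the 7 lower in CTX. The regions were picked with their values known, and groups do not overlap in any of the 13. The CTX samples of Dmrt3 and Neurog2 lie farther apart than their LGE samples.

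Dmrt3, a DM-domain factor of the dorsal pallium, had 105 and 227 CPM in CTX against 39.4 and 47.2 CPM in LGE over its start site (log2 fold 1.94 ± 0.42, edgeR adjusted p = 0.173). Dmrta2, a related factor, had 176 and 299 CPM against 84.0 and 94.6 CPM. A region 78418 bp from the start site of Emx2, the partner of Emx1 in cortical patterning, held 60.6 and 41.4 CPM in CTX against 9.01 and 4.24 CPM in LGE (log2 fold 2.94 ± 0.47). Of 85 regions nearest to the 13 pallial genes, 38.8% were higher and 17 regions were lower in both CTX samples, or 41.2% and 12 regions with the samples scaled by jointly covered regions alone. Lhx2, a LIM homeodomain factor of cortical progenitors on the same list, had 0 of 6 regions higher and 5 lower (3 with that scaling), with log2 folds from −2.04 to −0.18. Its gene sum was higher in both CTX samples, at 359 and 437 CPM against 233 and 255 CPM in LGE (log2 fold 0.70, edgeR adjusted p = 0.251), and per base of peak the log2 fold was −0.20 with overlapping groups. Of 22 regions nearest to glutamatergic neurogenesis genes 68.2% were higher and 4.5% lower, or 72.7% and 4.5% with that scaling. All 4 regions of Neurog2, the proneural factor of cortical progenitors, were higher: its start-site region held 108 and 150 CPM against 65.2 and 62.9 CPM, and a region 12504 bp away held 31.0 and 77.7 CPM against 7.64 and 5.78 CPM (log2 fold 3.02 ± 0.53). Over the start site of Slc17a6, a vesicular glutamate transporter, the values were 93.8 and 57.8 CPM against 36.4 and 37.0 CPM.

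Cortical layer regulators had regions in both directions, with 24.4% of 131 higher and 36.6% lower, or 26.7% and 30.5% with the samples scaled by jointly covered regions alone. Fezf2, the determinant of deep-layer projection neurons, had 249 and 374 CPM in CTX against 132 and 145 CPM in LGE over its start site (log2 fold 1.17 ± 0.23, edgeR adjusted p = 0.165). Sox5, a deep-layer factor with many intronic regions, had 8 regions higher and 7 lower of 26 (9 and 6 with that scaling). The widest folds were in intronic regions with 37.5 and 53.5 CPM in CTX against 10.1 and 9.90 CPM in LGE, and with 30.4 and 25.2 CPM against 6.61 and 5.61 CPM. Among 57 regions of Cajal-Retzius and cortical hem genes 28.1% were higher and 14.0% lower, or 29.8% and 8.8% with that scaling.

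Striatal projection neuron genes showed more regions lower than higher in CTX, 43.3% against 13.4% of 164, or 37.2% against 16.5% with the samples scaled by jointly covered regions alone. Meis1, a TALE homeobox gene of striatal precursors, had 17 of 26 regions lower and 4 higher (14 and 4 with that scaling), and its most different region, 334445 bp from the start site, held 1.41 and 0.718 CPM in CTX against 9.62 and 9.40 CPM in LGE. Isl1, the LIM homeodomain factor of striatonigral neurons, had 11 of 14 regions lower (10 with that scaling). Its 1 higher region held 30.8 and 27.8 CPM in CTX against 10.9 and 7.52 CPM in LGE. Bcl11b, a zinc-finger factor shared by striatal and deep-layer cortical neurons, had 2 regions higher and 6 lower of 13 (3 and 5 with that scaling), with the most different at 2.55 and 3.64 CPM against 15.6 and 17.5 CPM.

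Regions of the neighbouring eminences' genes differed by gene, and those of signalling pathways were mixed. Of 60 regions nearest to MGE and CGE markers 40.0% were higher and 25.0% lower in CTX, or 41.7% and 23.3% with the samples scaled by jointly covered regions alone. Most of the higher regions were those of Nr2f1 and Nr2f2. Nr2f1, a nuclear receptor graded across cortex and enriched in the CGE, had 11 of 15 regions higher under the first scaling and 12 under the second. Nr2f2, a related gene, had 10 of 22 higher and 3 lower under both, and Prox1 had 2 of 10 higher and 4 lower under both. The MGE genes Nkx2-1, Lhx6, Lhx8 and Nkx6-2 each had 0 regions higher and at least 1 lower under both. The start-site region of Htr3a, a serotonin receptor gene used as a marker of CGE interneurons, held 19.8 and 30.8 CPM in CTX against 4.72 and 2.70 CPM in LGE (log2 fold 2.77 ± 0.45). An intron of Morn5 16336 bp from the start site of Lhx6, an MGE interneuron factor, held 1.196 and 1.347 CPM against 7.45 and 7.79 CPM. For ligands and targets of FGF, SHH, WNT and BMP signalling, 19.1% of 89 regions were higher and 30.3% lower, or 22.5% and 28.1% with the second scaling. A region 14666 bp from the start site of Wnt7a, a WNT ligand of neural progenitors, held 58.5 and 30.3 CPM in CTX against 117 and 118 CPM in LGE.

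**Figure D3:**
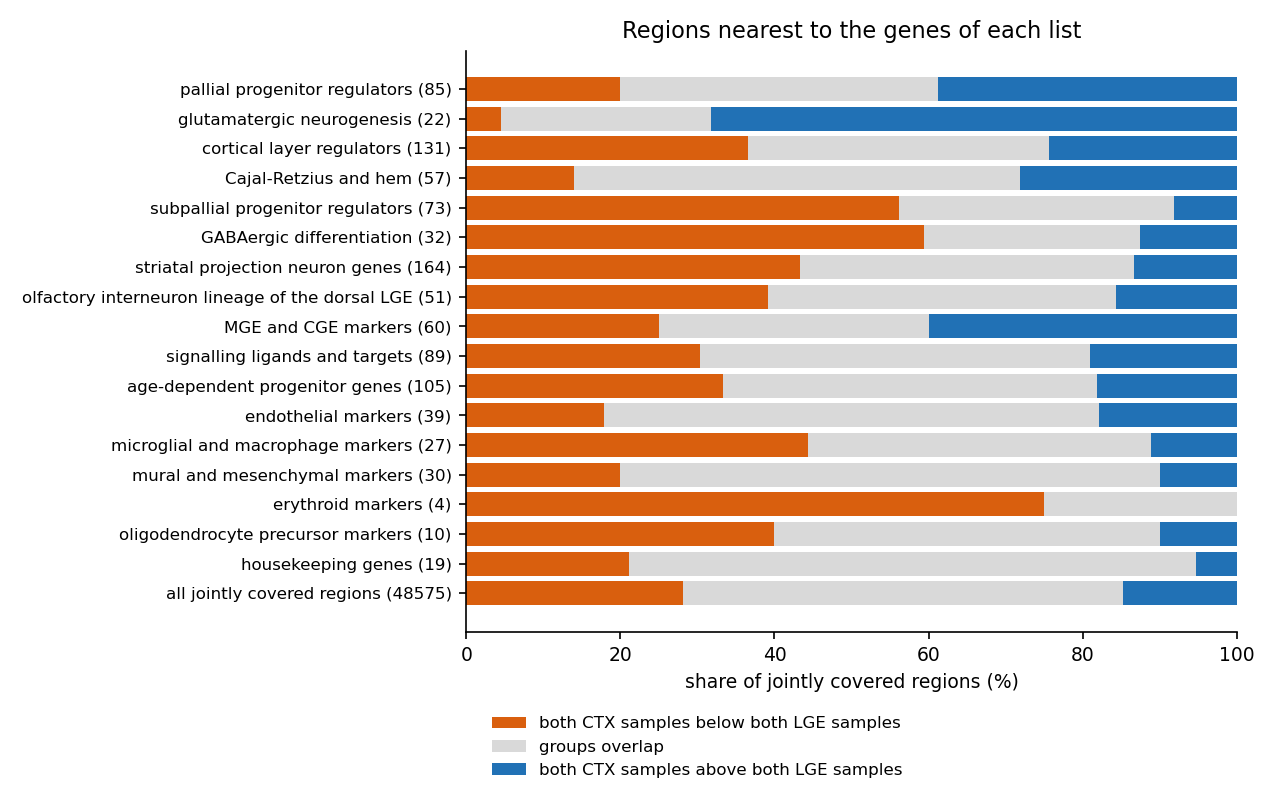
Share of jointly covered regions (x axis, percent) nearest to the genes of each list that were lower in both CTX samples, overlapping, or higher in both CTX samples, with the number of regions in brackets. Of glutamatergic neurogenesis regions 68.2% are higher, GABAergic differentiation and subpallial regulators have 59.4% and 56.2% lower, and over all 48575 regions 28.1% are lower and 14.7% higher, a split that was 20.2% and 20.6% with the samples scaled by these regions alone.

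The 13 start-site regions plotted were picked with their values known, and in all 13 the groups were separated. None passed the edgeR threshold with all 4 samples (adjusted p from 0.151 to 0.173). DESeq2 called all 13, against 9204 of all 78291 regions, but a choice of separated regions favours such calls. Without either LGE sample edgeR called 0 regions (smallest adjusted p 0.912 without LGE replicate 1 and 0.873 without LGE replicate 2), and so none of the 13. Of 19 regions nearest to housekeeping genes 5.3% were higher and 21.1% lower, or 15.8% and 10.5% with the samples scaled by jointly covered regions alone.

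With 1 CTX sample left out and the fit repeated, 30.3% of all jointly covered regions were higher and 48.6% lower without CTX replicate 1, and 32.2% and 53.4% without CTX replicate 2. Against these shares, 65.8% and 79.5% of the subpallial regulators' regions were lower, respectively, as were 68.8% and 68.8% of the GABAergic and 66.5% and 59.1% of the striatal regions. Of the glutamatergic regions 77.3% and 77.3% were higher, and of the 85 pallial regions 51 and 42. Layer regions were lower at 58.8% and 48.1% and higher at 35.9% and 41.2%, and signalling regions lower at 44.9% and 55.1% and higher at 40.4% and 34.8%. The balance turned with the sample left out for MGE and CGE markers, with 63.3% higher and 28.3% lower without CTX replicate 1 but 38.3% and 53.3% without CTX replicate 2. It also turned for Cajal-Retzius and hem genes (52.6% and 31.6%, then 43.9% and 45.6%) and for housekeeping genes (31.6% and 21.1%, then 15.8% and 78.9%).

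Beyond the lists, regions were named by the smallest edgeR p among separated jointly covered regions, 3 start-site and 5 distal regions in each direction, none of them called. Besides Emx1, the start-site regions higher in CTX were those of Tead1, a transcriptional effector of the Hippo pathway, with 37.5 and 40.7 CPM in CTX against 14.6 and 13.6 CPM in LGE, and of the cone opsin gene Opn1sw, with 18.7 and 18.3 CPM against 3.93 and 3.40 CPM. The distal Sdk2 region printed above held 46.5 and 53.1 CPM in CTX against 11.5 and 10.7 CPM in LGE (log2 fold 2.17 ± 0.18), and the Rbfox1 region held 54.6 and 67.6 CPM against 10.1 and 7.08 CPM (2.83 ± 0.27). Sdk2 encodes a synaptic adhesion molecule and Rbfox1 a neuronal splicing factor. The other 3 distal regions were intergenic near Rtl6 (37.7 and 48.9 CPM against 6.47 and 5.11 CPM), intronic in Adk and intergenic near Rgma, a repulsive guidance molecule gene. Choice by the smallest p favours regions whose pairs lie close together, and edgeR gave an adjusted p of 0.151 for each.

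Among the most separated regions lower in CTX, the start-site regions besides that of Dlx1 and Dlx2 belonged to Spsb4 (25.2 and 22.8 CPM in CTX against 72.5 and 68.7 CPM in LGE) and Frmd4b (9.62 and 12.8 CPM against 45.5 and 53.4 CPM). The Kcnmb2 intron, in a gene for a potassium channel subunit, held 3.14 and 3.13 CPM in CTX against 32.5 and 31.7 CPM in LGE, the widest fold of the 16 regions (log2 fold −3.36 ± 0.24). The Foxp4 region, near a forkhead factor gene related to Foxp1 and Foxp2, held 7.57 and 6.49 CPM against 43.2 and 43.5 CPM (−2.63 ± 0.20). A region in an intron of Tnfsf11 held 11.1 and 11.9 CPM against 59.0 and 60.9 CPM, and one near Otud7a held 2.90 and 2.77 CPM against 26.6 and 26.9 CPM. The fifth distal region was that downstream of Gsx2, and in all 5 the groups lay at least 2-fold apart.

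Few of the regions 2-fold apart lay at promoters. Start sites lay within 1 kb of 4.9% of the 593 regions at least 2-fold higher and 6.6% of the 1214 at least 2-fold lower, against 31.4% of all 48575. Of 15232 promoter regions 1189 (7.81%) were higher and 4591 (30.1%) lower in both CTX samples by any margin, and of 33343 distal regions 5932 (17.8%) and 9068 (27.2%). With the samples scaled by jointly covered regions alone the promoter regions split into 2247 higher (14.8%) and 2527 lower (16.6%), and the distal regions into 7769 higher (23.3%) and 7274 lower (21.8%). Promoter regions at least 2-fold apart numbered 29 higher (0.19%) and 80 lower (0.525%), and distal regions 564 higher (1.69%) and 1134 lower (3.4%), or 42 and 64 and 754 and 897 with that scaling. Promoter regions were 23.1% higher and 45.4% lower without CTX replicate 1 and 17.2% and 68.2% without CTX replicate 2. Distal regions split into 11196 higher and 16677 lower without CTX replicate 1 and 13025 and 15545 without CTX replicate 2. The median distance to a start site was 47.3 kb for the 593 higher and 38.6 kb for the 1214 lower regions, against 9.6 kb for all jointly covered regions, and the median GC content was 47.3% and 47.7% against 51.0%. These contrasts include the difference in promoter share. Among distal regions alone the distances were 51.2 and 44.7 kb against 24.9 kb, and the GC content was 47.2% and 47.7% against 48.7%.

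The short words printed in capitals above differed in frequency between the central 300 bases of distal regions higher and lower in CTX. TTGGCA, the NFI word, stood in 32.6% of distal regions higher in CTX, in 13.8% of those lower and in 17.4% of all jointly covered distal regions. TAATTA, the homeodomain word, stood in 25.2%, 13.3% and 12.3%, respectively. The words of SOX (ACAAAG: 27.8%, 36.8% and 27.7%), of MEIS and TGIF (TGACAG: 21.6%, 32.2% and 23.8%) and the octamer (ATGCAAAT: 3.5%, 7.8% and 3.3%) stood more often in regions lower in CTX. The E-box CAGATG was in 28.4%, 23.3% and 24.6%, and the E-box CAGCTG in 23.2%, 27.8% and 22.1%. Among promoter regions at large ACAAAG, the word in the Gsx2 promoter, was in 14.9%. These shares are descriptions with no test, and the regions higher in CTX were wider (median 1569 bp against 1059 bp).

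**Figure D4:**
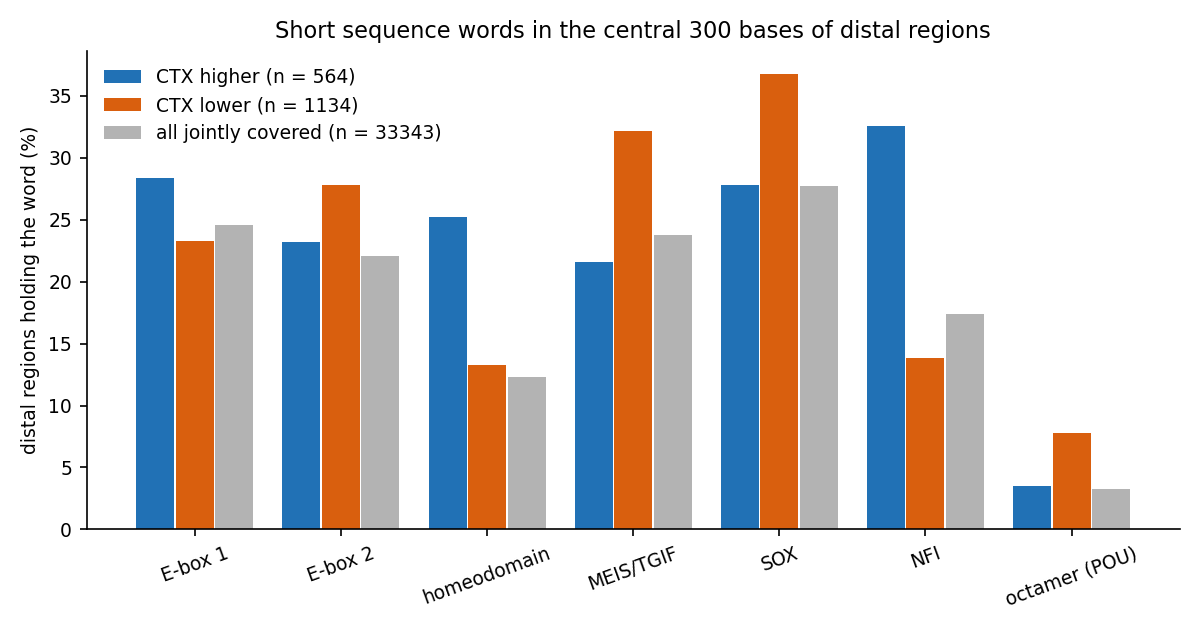
Percent of distal jointly covered regions (y axis) whose central 300 bases hold each of 7 short words on either strand, for the 564 at least 2-fold higher in CTX, the 1134 at least 2-fold lower and all 33343; E-box 1 is CAGATG and E-box 2 is CAGCTG. The NFI and homeodomain words are most frequent in regions higher in CTX, and the SOX, MEIS and octamer words in regions lower in CTX.

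Counts were next summed over peaks in each gene body and the 2 kb upstream, for 17077 protein-coding genes. Both CTX samples lay above both LGE samples for 3808 genes (22.3%) and below for 3428 (20.1%), and 568 genes (3.33%) were at least 2-fold higher and 102 (0.597%) at least 2-fold lower. Of these 670 genes 84.8% were higher in CTX, but 6.8% of 44 were so with counts taken per base of peak, which moved the median log2 fold of all genes from −0.00 to −0.29. Without CTX replicate 1 the count was 1397 and without CTX replicate 2 it was 1974. Gene sums moved with peak length: Emx1 held 131 and 174 CPM in 15.48 and 26.04 kb of CTX peaks against 41.9 and 45.1 CPM in 5.32 and 7.39 kb of LGE peaks, a log2 fold of 1.81 that was 0.12, with overlapping groups, per base of peak.

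None of the 13 subpallial regulators was higher in both CTX samples and 11 were lower, 6 of them at least 2-fold, with a median log2 fold of −0.86. Per base of peak 10 were lower and 1 higher, with a median of −0.64, where of all 16398 genes with a value 48.2% were lower and 1.5% higher and the median was −0.29. Without CTX replicate 1 the list had 11 lower and 2 higher, and without CTX replicate 2 it had 12 lower and 0 higher, where of all genes 39.8% and 42.0% were lower and 35.7% and 41.8% higher. Dlx1 held 54.1 and 51.4 CPM in CTX against 354 and 396 CPM in LGE, with the smallest p of the list (log2 fold −2.83 ± 0.17, edgeR adjusted p = 0.0543). All LGE counts of Dlx1 lay in peaks shared with other genes, and those of LGE replicate 2 were the same 29883 counts as for Dlx2, whereas the peak of CTX replicate 1 was that of Dlx1 alone. The log2 fold was −1.15 per base of peak and, as given above, −1.64 over the merged region. Gsx2 held 8.17 and 11.2 CPM against 39.4 and 135 CPM (−3.17 ± 0.65, edgeR adjusted p = 0.193). Olig2, a bHLH factor, had 49.7 and 42.6 CPM against 104 and 119 CPM. Of 7 GABAergic genes tested 4 were lower, 3 at least 2-fold, among them Gad2 (log2 fold −1.59) and Slc32a1 (−1.66), while Gad1 was at −0.62. Dlx5 and Dlx6 overlapped at gene level, with LGE replicate 1 at 63.5 and 102 CPM and LGE replicate 2 at 317 CPM for both genes, unlike the merged region that spans them.

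Of 13 pallial progenitor genes 9 were higher in both CTX samples and none lower (11 and 1 without CTX replicate 1, 10 and 1 without CTX replicate 2, where 35.7% and 41.8% of all genes were higher), with a median log2 fold of 0.49, or 0.12 per base of peak where all genes had −0.29 and where 3 were higher and 1 lower. Dmrt3 held 132 and 259 CPM in CTX against 51.4 and 55.1 CPM in LGE (log2 fold 1.88, or 1.02 per base of peak). Of 11 glutamatergic neurogenesis genes 8 were higher and none lower (8 and 0 without CTX replicate 1, 10 and 0 without CTX replicate 2), with a median of 0.97, or 0.26 per base of peak. Neurod6, a marker of postmitotic pyramidal neurons, held 137 and 43.4 CPM in CTX against 9.09 and 6.54 CPM in LGE (3.52 ± 0.62, edgeR adjusted p = 0.169). Its log2 fold was 0.63 with overlapping groups per base of peak, 2.46 without CTX replicate 1 and 4.13 without CTX replicate 2. Bhlhe22, a bHLH repressor of cortical neurons, held 89.3 and 97.1 CPM against 50.8 and 51.2 CPM. Neurod2 overlapped, since CTX replicate 1 had 171 CPM and CTX replicate 2, at 17.0 CPM, lay between the LGE samples at 18.8 and 13.7 CPM.

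For the lists that follow, of all genes 48.2% were lower and 1.5% higher per base of peak, with a median log2 fold of −0.29, so that a list near these values moved no more than genes at large. By CPM 35.7% of all genes were higher and 39.8% lower without CTX replicate 1, and 41.8% and 42.0% without CTX replicate 2. Of 20 striatal genes 4 were higher, 4 lower and 12 overlapped, per base of peak 0 were higher and 12 lower, and by CPM 7 were higher and 11 lower without CTX replicate 1 but 11 and 7 without CTX replicate 2. The 4 higher by CPM were the forkhead genes Foxp1 (log2 fold 0.58) and Foxp2 (0.48), the zinc-finger gene Zfp521 (0.38) and Rgs9 (0.45), which encodes a regulator of G-protein signalling. The dopamine receptor genes Drd1 (13.0 and 8.11 CPM against 15.3 and 14.2 CPM) and Drd2 (17.1 and 14.3 CPM against 20.6 and 25.1 CPM) were lower in CTX. Meis1 held 208 and 227 CPM against 365 and 339 CPM. Of 12 layer genes 5 were higher and 3 lower, and 1 and 5 per base of peak. Rorb, among the 3 lower by CPM, was at 92.4 and 66.3 CPM against 134 and 133 CPM. Of 13 Cajal-Retzius and hem genes 8 were higher and 1 lower, and per base of peak 0 were higher and 5 lower, with a median log2 fold of −0.15 that lay above that of all genes. Wnt3a, the hem ligand, held 28.7 and 44.0 CPM against 12.48 and 12.54 CPM, a log2 fold of 1.54 that was −0.44 per base of peak. Of 20 signalling genes 9 were higher and 4 lower, with a median log2 fold of 0.19, and per base of peak 0 were higher and 9 lower, with a median of −0.33 that lay near that of all genes. Without CTX replicate 1 layer genes were 6 higher and 6 lower, Cajal-Retzius and hem genes 10 and 1 and signalling genes 13 and 7, and without CTX replicate 2 they were 7 and 3, 8 and 3, and 9 and 8. The SHH targets Gli1 (45.3 and 46.1 CPM against 57.3 and 59.4 CPM) and Ptch1 (250 and 302 CPM against 397 and 449 CPM) were lower in CTX, and Wnt7b (140 and 124 CPM against 68.4 and 61.4 CPM) was higher by CPM and lower, at −0.42, per base of peak. Nfia, Nfib and Nfix, whose proteins bind the NFI word, had log2 folds of 1.17, 1.503 and 1.81, which per base of peak were −0.35, −0.30 and 0.55, the first pair near the median of all genes (−0.29) and Nfix above it. They belong to 12 age-dependent progenitor genes, of which 4 were higher and 1 lower, or 1 and 4 per base of peak. Of 8 MGE and CGE markers 3 were higher and 4 lower by CPM, and 1 and 6 per base of peak. Nkx2-1 (18.6 and 24.3 CPM against 35.6 and 32.2 CPM) and Nkx6-2 were among the lower by CPM. Of 6 dorsal LGE olfactory genes 1 was higher and 2 were lower, and all 10 housekeeping genes overlapped, of which 6 were lower per base of peak.

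Markers of other cell types that a dissection could hold were counted in the same way. The summed CPM of 10 endothelial markers was 311.7 and 269.3 in CTX and 239.7 and 204.4 in LGE, with 4 genes higher and none lower, and the summed levels of the groups did not overlap. Per base of peak 0 of these genes were higher and 3 lower, where 48.2% of all genes were lower and 1.5% higher, and of 39 jointly covered regions nearest to them 17.9% were higher and 17.9% lower, or 30.8% and 15.4% with the samples scaled by such regions alone. These regions were 41.0% higher and 35.9% lower without CTX replicate 1, and 30.8% and 48.7% without CTX replicate 2. Emcn (28.5 and 13.6 CPM against 4.68 and 4.22 CPM) and Cdh5 (29.1 and 12.1 CPM against 6.48 and 4.56 CPM), 2 endothelial surface genes, were among the 4, and Tie1 was at 0 in LGE replicate 2. The summed CPM of 6 microglial markers was 274.7 and 213.9 against 223.4 and 205.1, with 2 higher and 1 lower, P2ry12, whose start-site region in a host gene, Med12l, held 3.65 and 4.90 CPM against 16.9 and 17.0 CPM. Of 27 jointly covered regions nearest to microglial markers 44.4% were lower and 11.1% higher, or 40.7% and 14.8% with that scaling, and 74.1% and 48.1% were lower without CTX replicate 1 and 2. For 9 mural and mesenchymal markers the summed CPM was 283.8 and 376.3 against 287.1 and 297.4, for 3 erythroid markers 66.0 and 72.0 against 74.8 and 67.3, and for 3 oligodendrocyte precursor markers 145.0 and 111.1 against 127.4 and 143.6, each with 1 gene higher and 1 lower. The part of these markers in the other results was not tested.

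The edgeR test called 5 genes (0.0293%), none of which met the rule for naming genes, and they are named here after their values were seen. That rule asked for a peak in all 4 samples and at least 50% of each sample's counts in peaks of no other gene. By DESeq2 2200 genes were called. The edgeR test called 1499 genes without CTX replicate 1, 3078 without CTX replicate 2 and 0 without either LGE sample, and with the replicate number as a block it called 0 (smallest adjusted p 0.143). Gigyf1, a translational regulator gene, was lower in CTX with 13.4 and 14.53 CPM against 100 and 120 CPM (log2 fold −2.98, edgeR adjusted p = 0.0467), and within 1 kb of its start sites the log2 fold was −0.03. Rhbg, an ammonium transporter gene, held 805 and 931 CPM in CTX against 51.1 and 46.0 CPM in LGE (edgeR adjusted p = 0.0416), with 50.5 and 50.2 kb of peak against 5.45 and 6.04 kb. Its log2 fold of 4.16 was 1.02 and not called per base of peak, and 0.24 with overlapping groups within 1 kb of its start sites. The overlapping predicted gene Gm38392 shared these peaks (log2 fold 4.12). Gpr142 held 127 and 106 CPM against 6.38 and 6.22 CPM, and its log2 fold of 4.21 was −0.03 in peaks of no other gene. Mia held 86.0 and 113 CPM in CTX and had no peak in either LGE sample. Gigyf1, Rhbg and Mia had too few counts in peaks of no other gene to be tested there.

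Motif sums, from the deposited counts for each of 579 transcription factor motifs, gave no edgeR call (0 of 579, or 0%), with 96 motifs at an unadjusted p of 0.05 or less and 40 called by DESeq2. Both CTX samples lay above both LGE samples for 159 motifs (27.5%) and below for 178 (30.7%), numbers that were 192 and 235 without CTX replicate 1 and 252 and 243 without CTX replicate 2. The log2 folds ran from −1.08 to 1.44. Motif sums were not limited to shared regions and had no offset for peak length. Regions shared by the 4 samples held 81.7% and 89.9% of the CTX counts in peaks, against 96.5% and 94.1% in LGE. Promoter regions made up 22.6% of these shared regions. They made up 4.1% of regions found in the CTX pair alone and 2.6% of those in the LGE pair alone. Whether such differences between peak sets moved the motif sums, promoter motifs included, was not tested. The sums of near-identical motifs did not always match across samples. FLI1 and ERG had equal sums in both CTX samples and in LGE replicate 1, but 468 and 527 CPM, respectively, in LGE replicate 2.

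All 3 NFI motifs tested were higher in CTX with a median log2 fold of 0.29, led by NFIC at 712 and 545 CPM in CTX against 247 and 389 CPM in LGE (0.98 ± 0.28, edgeR adjusted p = 0.240). Of 14 bHLH motifs 9 were higher and 2 lower, with a median of 0.61. Among the higher, OLIG1 and OLIG2 had identical sums in all 4 samples, and OLIG3 differed from them only in CTX replicate 2. Neurog1 had 550 and 339 CPM against 217 and 286 CPM, whereas Tcf12 had 680 and 707 CPM against 954 and 850 CPM. Of 16 LIM, EMX and DLX class homeodomain motifs 10 were higher and 1, LHX6, lower. GSX2 had the smallest p of all motifs higher in CTX, with 1261 and 1462 CPM against 805 and 854 CPM (0.71 ± 0.12, edgeR adjusted p = 0.239), next to NOTO, GLI2, LHX2 and DLX6. Homeodomain factors read closely similar words, and the motif sum does not tell which factor is present. T-box motifs had 3 of 5 higher, among them TBX20.

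Lower in CTX were all 5 RFX motifs (log2 fold from −0.29 to −0.27), 4 of 6 POU motifs, 2 of 3 PAX motifs (PAX3 and PAX7, whose sums were identical) and 12 of 16 insulator and promoter motifs, among them NRF1 at 2610 and 2655 CPM against 3231 and 3115 CPM. None of these 4 families had a motif higher in both CTX samples. Of 10 MEIS, PBX and TGIF motifs 3 were lower, a share close to the 30.7% of all motifs, and 7 overlapped, but 8 were lower and 0 higher without CTX replicate 1 and 3 lower and 4 higher without CTX replicate 2. With each CTX sample left out in turn all 5 RFX and all 3 NFI motifs kept their direction. Without CTX replicate 1, 9 bHLH motifs were higher and 4 lower, with a median log2 fold of 0.25. Without CTX replicate 2, 10 were higher and 2 lower, with a median of 0.89. POU motifs had 6 lower without CTX replicate 1, and 4 lower and 1 higher without CTX replicate 2. SOX motifs were split, with 3 higher and 3 lower of 10, and of 11 EBF, RAR and nuclear receptor motifs 2 were higher and 5 lower, RORB at 89.5 and 91.0 CPM against 118 and 128 CPM. The motifs of smallest p lower in CTX were TEF, VSX1, BARHL2, Hoxa11 and HOXC12, from −0.48 to −1.02.

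**Figure D5:**
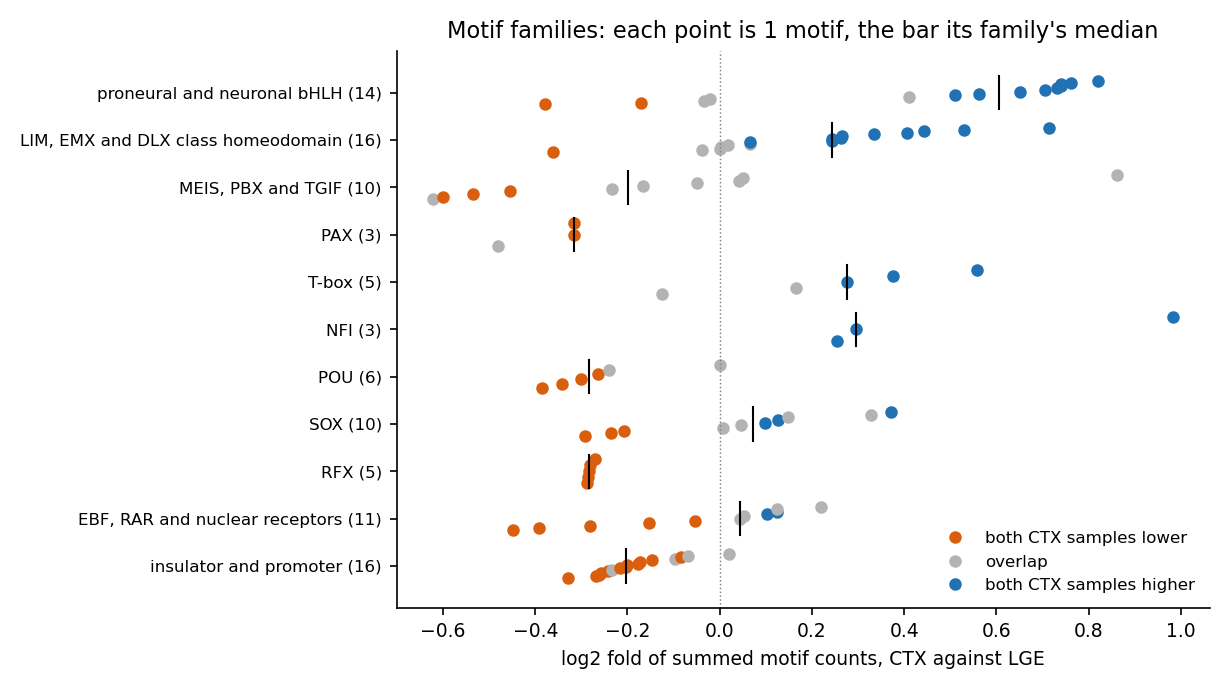
Log2 fold of summed motif counts, CTX against LGE (x axis), for the motifs of 11 families (y axis, number of motifs tested in brackets); each point is 1 motif, blue where both CTX samples were higher, orange where both were lower and grey where the groups overlapped, and the bar is the family's median. The medians of NFI and bHLH motifs lie to the right, at 0.29 and 0.61, although 2 bHLH motifs were lower, and that of RFX motifs lies to the left at −0.28.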

How the data were processed

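Single-nucleus ATAC-seq libraries of the CTX and LGE were analysed as sums over nuclei, 2 samples each. The deposited counts of cut sites per peak and nucleus, and per motif and nucleus, were made by the authors with Cell Ranger ATAC 1.2.0 on GRCm38 (mm10), per the submitters' processing notes, with peaks called per sample. Every deposited nucleus entered the sums, and how barcodes were filtered before deposit was not stated. No doublet caller was run, so doublets remain in the sums, and whether they were removed before deposit was not stated either. Overlapping peaks from any of the 4 samples were joined into merged regions. Regions with a peak in all 4 samples, protein-coding genes (GENCODE M21 gene models, body plus 2 kb upstream) and motifs were tested with edgeR 4.0.16 (TMM, filterByExpr, quasi-likelihood F test, Benjamini-Hochberg adjusted p of 0.05 or less and separated groups) in R 4.3.3. DESeq2 1.42.0 and limma 3.58.1 were alternatives, as were other normalizations and filters, all 8 samples in the fit, a replicate block, an offset for the length of the sample's own peaks, and each sample left out. The fits were tested on simulated counts. Named regions were the 3 start-site and 5 distal jointly covered regions with the smallest p in each direction, named genes those of 17 lists with a role in the sentence, and named motifs those of 11 families and the 5 smallest p in each direction. Members and lists were chosen with earlier results of these data known. Sequences and RefSeq promoters were read from GRCm38.p6, and RefSeq promoters matched 130 of 182 list genes. Replicate numbers of the titles were checked for pairing, which is given with the alternatives. The cell types of single nuclei were not analysed here. Some genes and motifs are not reported here.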

Additional observations from a re-analysis of the deposited data

How the results depend on the processing

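Regions called by edgeR (0) numbered 9204 with DESeq2, 2525 with all 8 samples in the fit and 284 with an offset for peak length, and without 1 sample from 0 (either LGE sample) to 18784 (CTX replicate 2; 16909 without CTX replicate 1). Regions at least 2-fold apart (8501) numbered 2229 with the offset, 1757 among jointly covered regions fitted alone, 42042 among regions with a peak in at least 1 or at least 2 samples, 37443 by any margin, 2099 by at least 4-fold, and from 11964 (without LGE replicate 2) to 21526 (without CTX replicate 2), with 18740 without CTX replicate 1. Jointly covered regions at least 2-fold apart (1807) ran from 2322 (without LGE replicate 2) to 5665 (without CTX replicate 2), an alternative chosen after seeing the data.

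Genes called (5) numbered 2200 with DESeq2, 8 with no filter on low counts, 141 with all 8 samples, 0 with peaks within 1 kb of a start site, 0 with peaks of a single gene, 279 with the offset, and without 1 sample from 0 (either LGE sample) to 3078 (CTX replicate 2; 1499 without CTX replicate 1). Genes at least 2-fold apart (670) numbered 44 with the offset, 7236 by any margin, 334 by at least 4-fold, and from 986 (without LGE replicate 1) to 1974 (without CTX replicate 2), with 1397 without CTX replicate 1. Motifs called (0) numbered 40 with DESeq2 and 0 under every other alternative run.

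With the replicate block 0 regions, 0 genes and 0 motifs were called. The differences between replicates 1 and 2 of CTX and of LGE correlated at 0.173 over regions, 0.324 over jointly covered regions, 0.193 over genes and −0.243 over motifs. Over all 8 samples of the series, odd numbers made up 9.545% to 10.423% of the entries in replicates 1 and 5.167% to 5.853% in replicates 2. The labels do not say what a replicate number marks, and whether it marks a batch was not tested. With the crossed replicate block, added after seeing the data, 0 motifs were called.

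Log2 folds that turned with the offset for peak length included those of Nfib (−0.30), Nfia (−0.35), Wnt3a (−0.44), Nr2f1 (−0.24) and Wnt7b (−0.42). These values lay around the median of −0.29 to which the offset moved all genes. Those of Lhx2 (−0.20), Foxp1 (−0.16), Zfp521 (−0.19) and Rgs9 (−0.46) turned too. Gpr142 was at −0.03 with peaks of a single gene, where Dlx2 turned too: it had 6728 and 4748 counts in CTX and none in LGE, whose peaks there also lay over other genes, so no fold is given. The values were also counted for a set of named regions, genes and motifs that did not hold every gene named. Of the others in that set, 1155 kept direction and side of the threshold, 321 passed it and 22 no longer passed it. The causes were not tested, except that fewer samples and other features enter by construction.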

Other observations

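The difference between the CTX samples was not spread evenly over the gene lists. By gene CPM, 12 of 13 pallial progenitor regulators were lower in CTX replicate 1 than in CTX replicate 2, with a median log2 ratio of −0.42, and 10 of 12 cortical layer regulators were higher, with a median of 0.57. Per kb of peak, 2 of the 13 pallial genes and 5 of the 12 layer genes were higher in CTX replicate 1, against 6676 of all 16829 genes. Sp8, a zinc-finger factor, had a log2 ratio of −2.5 by CPM and −0.22 per kb of peak, and Wnt8b, a ligand of the cortical hem, −2.65 and −0.9. The LGE samples differed at these genes too, with log2 ratios of replicate 1 to replicate 2 of −0.81 and −3.41 by CPM. In jointly covered regions CTX replicate 1 was higher at 31.8% of those nearest to pallial progenitor regulators and at 63.6% of those nearest to glutamatergic neurogenesis genes, against 46.5% of all. These are differences between 2 libraries with no replicate, given as values.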
